A study of Homo sapiens with 4 samples.

Results

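The genes described here are 41 components of the cell cycle engine and of its p53-controlled brake: 8 cyclins, 4 cyclin-dependent kinases (CDKs), 5 CDK inhibitors, 9 members of the E2F and RB families, the p53 antagonists MDM2 and MDM4, 5 CDC25 phosphatases and WEE-type kinases, and 8 mitotic kinases and checkpoint proteins. They were listed by name, with earlier results of these data known, and make up 41 of the 20033 protein-coding genes of the gene table. Each gene was given the USF1 peaks whose centre lay within the gene or within 1 kb of it. Of the 41 genes, 29 had such a peak in at least 1 of the 2 deposited peak lists and 12 had none. Over all 20033 protein-coding genes, 10320 had one and 9713 had none.

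Binding was measured by chromatin immunoprecipitation and sequencing in Huh7 cells, a human hepatocellular carcinoma line in which USF1 was overexpressed and precipitated through a FLAG tag. List 1 set immunoprecipitate 1 against input 1 and list 2 set immunoprecipitate 2 against input 2, so that each list is 1 replicate. The labels do not say whether the replicates came from separate cultures. All of the values therefore describe tagged, overexpressed USF1 in 1 cell line, with no library from cells lacking the tagged protein and no IgG library analysed here, and the peak lists carry no expression values against which the cell type could be checked.

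Cyclins are the regulatory partners of CDKs. Cyclin D with CDK4 or CDK6, and then cyclin E with CDK2, phosphorylate RB-family proteins and release E2F factors, which switch on genes for S phase, while cyclins A and B with CDK1 drive mitosis. The INK4 inhibitors, such as CDKN2C and CDKN2D, hold CDK4 and CDK6 inactive, and CDKN1A (p21) is the CDK inhibitor through which p53 halts the cycle. USF1 is a basic helix-loop-helix leucine zipper factor that binds the palindromic E-box CACGTG.

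Among these genes, the 2 strongest peaks found in both lists lay at CDK4 and at CDKN2C, the gene of a CDK4 inhibitor, and in both the peak summits fell on or next to an E-box. The 250 bases before the gene start are shown for 4 of the 6 genes with a shared peak at the gene start, those whose shared peak had the highest lower fold of the 2 lists. PLK1 is shown as a gene with an E-box and no peak. FAF1, the gene that starts on the opposite strand next to CDKN2C, was added after the values were seen, because its window covers the summits. Sequences are from RefSeq (GRCh38.p14), 5′ to 3′ along the gene. Capitals mark the E-box CACGTG and, in either orientation, the cell cycle homology element TTTGAA (read TTCAAA on the other strand). The windows lie at chr12:57752311-57752560 (minus strand) for CDK4, chr1:50960495-50960744 (plus) for CDKN2C, chr1:50960268-50960517 (minus) for FAF1, chr1:43358731-43358980 (plus) for CDC20, chr19:3506061-3506310 (plus) for FZR1 and chr16:23678639-23678888 (plus) for PLK1.
CDK4: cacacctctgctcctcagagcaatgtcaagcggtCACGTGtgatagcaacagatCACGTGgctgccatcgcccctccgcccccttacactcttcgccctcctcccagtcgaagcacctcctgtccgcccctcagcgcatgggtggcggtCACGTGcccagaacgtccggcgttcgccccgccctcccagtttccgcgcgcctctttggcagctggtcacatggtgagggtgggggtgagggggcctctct
CDKN2C: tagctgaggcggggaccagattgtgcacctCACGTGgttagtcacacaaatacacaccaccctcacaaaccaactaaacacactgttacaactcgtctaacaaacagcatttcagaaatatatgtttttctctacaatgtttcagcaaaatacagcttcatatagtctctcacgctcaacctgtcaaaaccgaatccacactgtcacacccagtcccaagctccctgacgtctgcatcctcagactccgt
FAF1: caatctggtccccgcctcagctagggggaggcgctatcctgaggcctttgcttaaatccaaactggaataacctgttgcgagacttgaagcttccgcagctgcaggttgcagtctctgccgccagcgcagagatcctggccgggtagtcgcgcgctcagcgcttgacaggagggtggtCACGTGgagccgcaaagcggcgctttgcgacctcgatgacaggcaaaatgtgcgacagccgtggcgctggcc
CDC20: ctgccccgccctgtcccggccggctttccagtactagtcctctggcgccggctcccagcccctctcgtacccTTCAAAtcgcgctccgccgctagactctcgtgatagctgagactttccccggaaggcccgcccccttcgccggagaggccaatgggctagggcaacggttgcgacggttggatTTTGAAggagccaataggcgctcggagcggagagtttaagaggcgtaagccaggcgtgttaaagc
FZR1: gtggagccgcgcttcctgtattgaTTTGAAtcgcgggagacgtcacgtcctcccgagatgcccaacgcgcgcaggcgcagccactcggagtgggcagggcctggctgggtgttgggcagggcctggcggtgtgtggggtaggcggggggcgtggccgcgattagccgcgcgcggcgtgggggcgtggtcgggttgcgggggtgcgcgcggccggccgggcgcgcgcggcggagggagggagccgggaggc
PLK1: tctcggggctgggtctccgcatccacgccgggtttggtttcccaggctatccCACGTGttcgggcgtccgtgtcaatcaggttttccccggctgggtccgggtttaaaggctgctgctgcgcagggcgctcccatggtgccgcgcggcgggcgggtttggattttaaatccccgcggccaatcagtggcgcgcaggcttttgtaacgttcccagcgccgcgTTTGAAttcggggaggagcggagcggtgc

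The CDK4 window holds 3 E-boxes, the CDKN2C, FAF1 and PLK1 windows hold 1 each, and the CDC20 and FZR1 windows hold none. CDC20 has 2 copies of the TTTGAA element and FZR1 and PLK1 have 1 each.

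Depth was similar in both replicates, with 47165647 and 43942638 immunoprecipitate tags left after the caller's filtering for lists 1 and 2, and 46345938 and 43562726 input tags. List 1 nevertheless held 14300 peaks and list 2 held 27325, of which 5336 and 5346 overlapped a peak of the other list. Each peak has a tag count, a fold over input at its summit, and a false discovery rate (FDR) that the caller estimated by swapping immunoprecipitate and input. All 3 are the authors' own values per peak. Among the peaks at these genes the FDR was at its ceiling of 100% for 12 of 23 in list 1 and for 0 of 36 in list 2. Over all peaks it was at this ceiling for 9202 of 14300 in list 1 and for 0 of 27325 in list 2. A gene without a peak is therefore 1 at which the caller's p cutoff of 1e-05 was not passed, not 1 shown to be unbound.

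In list 1, 15 of the 41 genes had a peak (36.6%), against 25.9% of all protein-coding genes. In list 2, 26 of 41 had one (63.4%, against 47.0%). A peak shared by the lists, meaning an overlap of at least 1 bp, was present at 9 of 41 genes (22.0%, against 16.8%). The genes were somewhat short, with a median length of 16522 bp against 24130 bp over all protein-coding genes, and the share of genes with a peak anywhere in the gene body depends on length.

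A count at gene starts does not involve the length of the gene, but a gene with more listed starts can be counted at more places. A start is listed in the RefSeq promoter table for 32 of the 41 genes and for 15842 protein-coding genes. These 32 genes had 51 listed starts and the 15842 had 22182. Some listed starts lie inside the gene: the CDC25B start peak was centred 9435 bp from the nearer gene end. Within 1 kb of a start, list 2 had a peak at 22 of the 32 genes (68.8%, against 32.8%), list 1 at 8 (25.0%, against 16.5%), and both lists a shared peak at 6 (18.8%, against 12.8%). At an FDR of at most 5%, 14 of the 32 kept a list 2 peak at the start (43.8%, against 19.8%), a limit chosen after the data were seen. The excess over the background was thus widest in list 2 alone. The 9 genes without a listed start are AURKA, CCND1, CCND2, CCNE2, CDK2, CDKN1C, E2F5, PKMYT1 and WEE1.

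**Figure D1:**
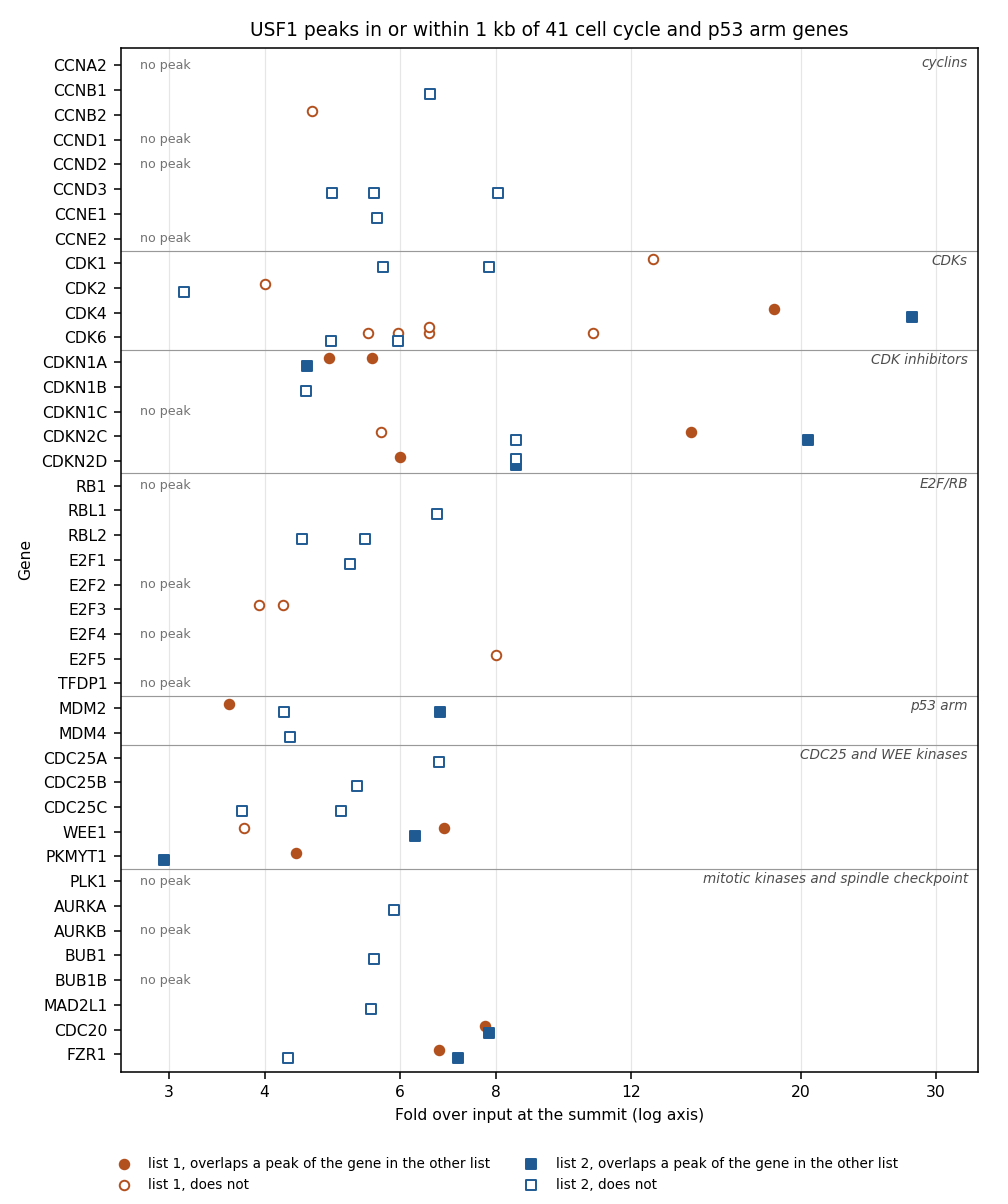
Fold over input (log axis) of every peak in or within 1 kb of the 41 genes, grouped by role, with circles for list 1 and squares for list 2. Filled symbols overlap a peak of the same gene in the other list; CDK4 and CDKN2C stand furthest to the right with both symbols filled, and the 12 genes marked "no peak" have none in either list.

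Each of the 4 CDKs had a peak in list 1 and in list 2, against 25.9% and 47.0% of all protein-coding genes. CDK4 alone had a shared one (25.0%, against 16.8%). Over all protein-coding genes, 3360 of the 4284 with a peak in both lists had a shared one. CDK4, the G1 kinase that starts RB phosphorylation, is a gene of 4584 bp on the minus strand of chromosome 12 (57747727 to 57752310). Its list 1 peak, at 57751577 to 57753499, had 306 tags, an 18.45-fold enrichment and an FDR of 0%. Its list 2 peak, at 57751397 to 57753086, had 421 tags, a 27.92-fold enrichment and an FDR of 0%. These were the highest folds and tag counts among the peaks of the 41 genes in each list, where the medians were 5.97-fold and 63 tags in list 1 and 5.58-fold and 69 tags in list 2. Ranked by the lower of the 2 folds, CDK4 stood 43rd of the 3360 protein-coding genes with a shared peak.

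The CDK4 summits lay at −217 and −203 bp from the gene start, 14 bp from each other, in the 5′ part of the window printed above. The list 1 summit was 3.5 bp from the middle of the E-box whose first base is at −216, and the list 2 summit was 10.5 bp from it and 9.5 bp from the middle of the E-box at −196. The third E-box, at −101, was 118.5 and 104.5 bp from the summits. Positions count the start base as 0.

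CDK1, the mitotic kinase, had peaks in both lists that missed each other by 190 bp. The list 1 peak (63 tags, 12.82-fold, FDR 9.52%) was centred 1342 bp inside the gene, and the nearer list 2 peak (63 tags, 5.71-fold, FDR 2.92%) lay at the gene start. A second list 2 peak, centred 6150 bp inside, had 50 tags and 7.84-fold enrichment. CDK1 is the gene with the third-highest fold in list 1, and its peak there had no partner in list 2.

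CDK6, the other cyclin D kinase, carried 5 list 1 peaks of 31 to 51 tags, all centred 30062 bp or more inside this long gene. The highest reached 10.71-fold with an FDR of 26.66%, and the other 4, between 5.46-fold and 6.55-fold, had an FDR of 100%. Its 2 list 2 peaks had 32 tags and 5.97-fold enrichment at the gene start, where the antisense transcript CDK6-AS1 also starts, and 39 tags and 4.88-fold near the 3′ end. The closest pair of peaks from the 2 lists was 29492 bp apart. At CDK2, the kinase of the G1/S transition, both peaks were centred outside the gene. The list 1 peak (121 tags, 4.01-fold) was centred 987 bp away beside RAB5B, just inside the limit of 1 kb, and overlapped a list 2 peak whose own centre was beyond it. The list 2 peak (196 tags, 3.14-fold), beside PMEL and 4805 bp from the list 1 peak, was centred 135.5 bp before the gene's lower coordinate but reached into it, with its summit inside. Where a gene had no peak in a list by this rule, the closest peak just beyond the limit was that near CDC25B in list 1, centred 1521 bp from the gene.

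Among the CDK inhibitors, 3 of 5 genes had a shared peak, CDKN2C, CDKN2D and CDKN1A, against 16.8% of all protein-coding genes. With each peak given only to the closest gene, CDKN1A alone was left of the 3. CDKN2C (p18, an INK4 inhibitor of CDK4 and CDK6) had 184 tags and 14.39-fold enrichment in list 1, and 185 tags and 20.43-fold in list 2, both with an FDR of 0%. The tag counts were nearly equal in the 2 replicates, and the summits were 7 bp apart. CDKN2C ranked 107th of 3360 by the lower fold.

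The shared CDKN2C peak lies between 2 divergent gene starts. Its summits were at −404 and −397 bp from the CDKN2C start, which is outside the window of that gene but inside that of FAF1, an adaptor protein linked to cell death signalling. The FAF1 window holds an E-box whose middle was 4.5 bp from the list 1 summit and 11.5 bp from the list 2 summit. The E-box in CDKN2C's own window, at −220, was 186.5 and 179.5 bp away. Which of the 2 genes this binding concerns was not tested; when each peak was counted for its nearest gene alone, CDKN2C had no shared peak. Each list had a further CDKN2C peak near another start of the gene, without overlap: 64 tags and 8.5-fold in list 2 (FDR 0.31%), and 29 tags and 5.68-fold in list 1 (FDR 100%).

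**Figure D2:**
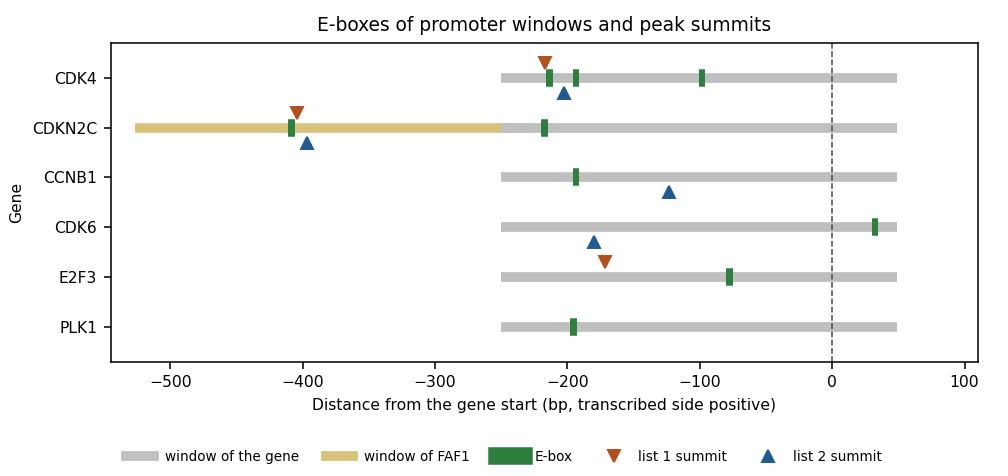
Positions of the E-boxes (green) in the promoter windows of the 6 genes that hold one, with peak summits of list 1 (downward triangles) and list 2 (upward triangles), in bp from the gene start. The summits sit on or beside an E-box at CDK4 and, in the window of the neighbouring FAF1, at CDKN2C, lie apart from it at CCNB1, CDK6 and E2F3, and are absent at PLK1; for CDKN2C and E2F3 the start nearest the drawn peaks is used.

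CDKN2D (p19, the sister INK4 inhibitor) had a shared peak beyond its 3′ end, at the start of the neighbouring gene KRI1: 34 tags and 6-fold with an FDR of 100% in list 1, and 71 tags and 8.5-fold with an FDR of 0.32% in list 2. At its own start CDKN2D had a list 2 peak only, of 67 tags and 8.5-fold (FDR 0.3%). CDKN1A (p21) had 2 list 1 peaks, of 53 tags and 4.86-fold and of 107 tags and 5.52-fold, and a single list 2 peak that overlapped both, of 96 tags and 4.54-fold (FDR 2.22%). The list 1 summits lay at −107 and 1561 bp from the listed start, where the p53-induced noncoding RNA DINOL also starts, with FDRs of 100% and 13.5%, and the list 2 summit lay at 54 bp. CDKN1B (p27) had a list 2 peak only, at its start (140 tags, 4.53-fold, FDR 0.2%). CDKN1C (p57) had no peak in either list.

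None of the 8 cyclins had a shared peak, a count too small to set apart from the background of 16.8%. CCNB1, a mitotic cyclin, had a list 2 peak at its start (121 tags, 6.57-fold, FDR 0.86%), with the summit 70.5 bp from its E-box. CCNB2, its paralogue, had a list 1 peak at its start (88 tags, 4.61-fold, FDR 100%). CCND3 had 3 list 2 peaks of 56 to 121 tags. The highest, 8.05-fold (FDR 0.18%), lay just beyond the upstream end of the gene, beside a boundary of the neighbouring gene TAF8. CCNE1, the G1/S cyclin, had a list 2 peak of 44 tags and 5.6-fold with an FDR of 25.01%. CCNA2, CCND1, CCND2 and CCNE2 had no peak in either list. In all, 1 of 8 cyclins had a list 1 peak and 3 of 8 a list 2 peak, and at gene starts it was 1 of 5 and 3 of 5. With so few genes these counts are near the background of 25.9% and 47.0% for the gene and of 16.5% and 32.8% for the start.

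The 9 genes of the E2F and RB families had no shared peak either. This count too is too small to set apart from the same background of 16.8%. Of the pocket proteins, which restrain E2F factors, RBL1 (p107) had a list 2 peak of 107 tags and 6.71-fold at its start (FDR 0.22%). RBL2 (p130) had list 2 peaks of 63 tags and 4.47-fold at its start and of 40 tags and 5.41-fold in the gene body, and RB1 had none. Of the activating E2F factors, E2F1 had a list 2 peak of 143 tags and 5.17-fold (FDR 15.72%). E2F3 had 2 list 1 peaks, at its 2 starts, of 62 tags and 4.23-fold and of 87 tags and 3.93-fold, both with an FDR of 100%. The second had its summit 94.5 bp from an E-box. E2F5, a repressive member, had a list 1 peak of 37 tags and 8.01-fold with an FDR of 68.21%. E2F2, E2F4 and TFDP1, the dimerisation partner of E2F factors, had no peak in either list.

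In the p53 arm, MDM2, the ubiquitin ligase that degrades p53 and is itself a p53 target, had a shared peak at its start. It had 97 tags and 3.6-fold with an FDR of 100% in list 1, and 108 tags and 6.77-fold with an FDR of 0.74% in list 2, with the summits 117 bp apart. The tag counts were close while the folds differed. A second list 2 peak of 53 tags and 4.24-fold lay 35689.5 bp from the start, where the gene overlaps CPM. MDM4, the second p53 antagonist, had a list 2 peak at its start (114 tags, 4.32-fold, FDR 11.06%) and none in list 1. By the lower fold MDM2 ranked 3160th and CDKN1A 2426th of the 3360 genes, so by this measure both p53 targets had weaker shared peaks. By p the order differed for CDKN1A. It was 1 of the 5 genes that kept a shared peak at a p of at most 1e-10, and MDM2 was not.

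All 5 genes that switch the inhibitory phosphorylation of CDKs had a list 2 peak, against 47.0% of all protein-coding genes, and 2 had a list 1 peak, against 25.9%. The WEE1 kinase, which adds this phosphate, had the broadest shared peak of the 41 genes: 241 tags and 6.86-fold over 2264 bp in list 1 (FDR 3.23%), and 287 tags and 6.29-fold over 2807 bp in list 2 (FDR 0.12%). Its tag counts were second only to those of CDK4, but the summits were 824 bp apart. A further list 1 peak inside WEE1 had 49 tags and 3.76-fold enrichment (FDR 100%). PKMYT1, the membrane-bound relative of WEE1, had a weak shared peak of 92 tags and 4.4-fold in list 1 and of 103 tags and 2.96-fold in list 2. Its summits were 875 bp apart, and it ranked 3347th of 3360. The CDC25 phosphatases, which remove the phosphate, had list 2 peaks only, at their starts. The CDC25A peak had 123 tags and 6.75-fold (FDR 0.38%), the CDC25B peak 46 tags and 5.28-fold (FDR 12.26%), and CDC25C had 1 peak of 59 tags and 5.03-fold and another of 100 tags and 3.74-fold, the latter beside the start of FAM53C.

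Of the mitotic genes, the 2 activators of the anaphase-promoting complex had shared peaks at their starts. CDC20 had 66 tags and 7.75-fold in list 1 (FDR 26.42%), and 61 tags and 7.84-fold in list 2 (FDR 2.79%), with the summits 39 bp apart and the noncoding CDC20-DT starting next to them. FZR1 (CDH1) had 82 tags and 6.75-fold (FDR 28.3%) in list 1 and 55 tags and 7.14-fold (FDR 8.68%) in list 2, with the summits 78 bp apart. In both genes the folds were nearly equal in the 2 replicates. A further list 2 peak in the body of FZR1 had 31 tags. List 2 alone had peaks at AURKA (95 tags, 5.9-fold, FDR 2.99%, beside the start of CSTF1), at the checkpoint kinase BUB1 (122 tags, 5.56-fold, FDR 0.74%) and at the checkpoint protein MAD2L1 (66 tags, 5.5-fold, FDR 7.89%). PLK1, AURKB and BUB1B had no peak in either list. The E-box in the PLK1 window shown above begins at −198; the nearest peak was centred 19169.5 bp from the gene.

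**Figure D3:**
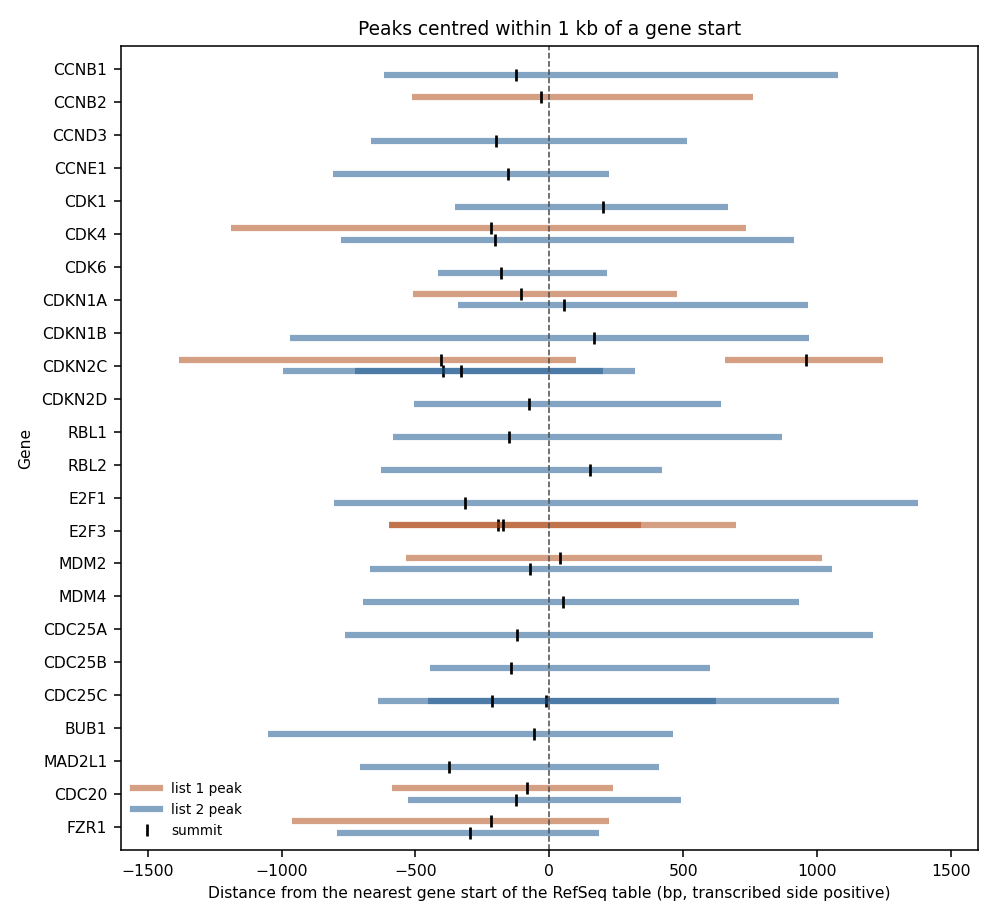
Extent of each peak centred within 1 kb of a gene start (bars: list 1 in brown, list 2 in blue; black ticks: summits), in bp from the nearest start of the gene. Most bars are blue, 24 list 2 peaks against 10 list 1 peaks, and most summits lie before the start or within 200 bp of it.

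The 24 list 2 peaks at starts had a median width of 1187 bp, against 1263 bp over the start peaks of all protein-coding genes in that list, and the 10 list 1 peaks one of 1230.5 bp against 1036 bp. The difference in width thus went in opposite directions in the 2 lists. Their median folds, 5.65 in list 2 and 5.27 in list 1, were close to those of all protein-coding gene starts, 5.44 and 5.5. The genes thus carried more list 2 start peaks than the background, at an ordinary height.

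The 9 shared peaks were compared with those of all 3360 genes that had one. The median of the lower fold was 6.29, against 5.545. The fold was higher in list 2 at 6 of the 9 genes (66.7%, against 66.8%). The median distance between summits was 78 bp, against 43 bp, and 7 of 9 pairs lay within 200 bp (77.8%, against 83.1%), the exceptions being WEE1 and PKMYT1. At an 8-fold enrichment in both lists only CDK4 and CDKN2C remained (4.88% of the 41, against 3.28%). When the FDR had to be 5% or less in each list, CDK4, CDKN2C and WEE1 remained (7.32%, against 1.3%).

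**Figure D4:**
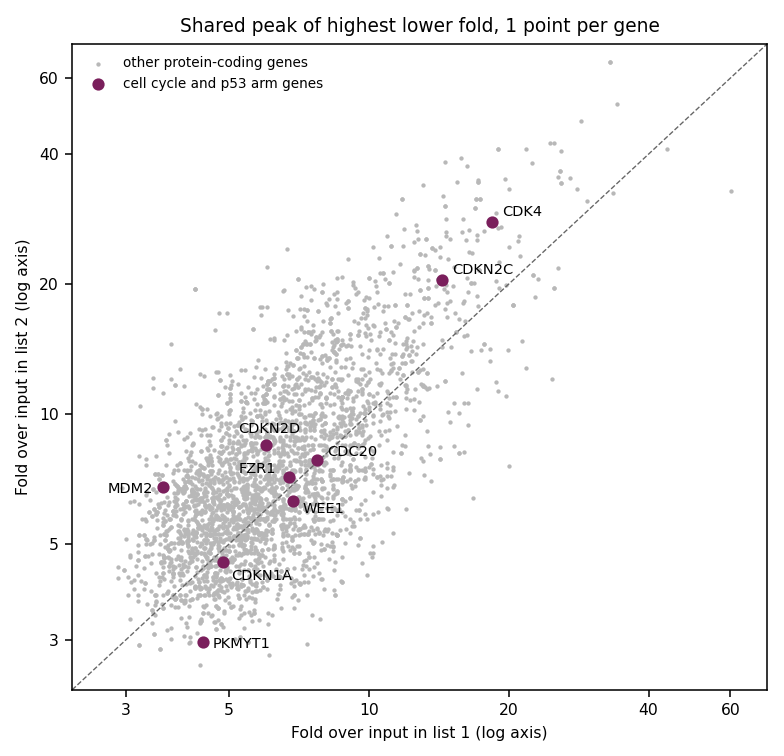
Fold over input in list 1 and list 2 (log axes) of the shared peak with the highest lower fold, 1 point per protein-coding gene, with the 9 cell cycle and p53 arm genes in purple and equality dashed. CDK4 (18.45 and 27.92) and CDKN2C (14.39 and 20.43) lie at the upper right, and MDM2 and PKMYT1 near the lower left edge of the cloud.

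Promoter windows of 300 bases (250 before the start and 50 after it) were searched on both strands for 4 motifs. The E-box CACGTG occurred in windows of 6 of the 32 genes, CDK4, CDKN2C, CCNB1, CDK6, E2F3 and PLK1, and in those of 10.9% of all genes. Counted over windows, 13.7% of the 51 windows of these genes held it, against 8.34% of all 22182. Motifs known from cell cycle promoters were counted in the same way: CCAAT was in 54.9% of the windows (34.7% of all), the cell cycle homology element TTTGAA in 25.5% (12.4% of all), and the E2F words TTTCCCGC or TTTGGCGC in 13.7% (2.8% of all). Windows of the same gene can overlap. Counted over genes, CCAAT was in 20 of the 32 (42.1% of all), TTTGAA in 11 (15.9% of all) and the E2F words in 6 (3.7% of all). None of these motifs contains another, and a match is a description of the sequence only.

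Over all protein-coding genes a shared peak at the start was present at 9.6% of those with no E-box in a window, at 36.5% of those with 1, and at 62.9% of those with 2 or more. Among the 32 genes it was present at 4 of 26 without an E-box (15.4%), at 1 of 5 with 1, and at CDK4, the single gene with more in any 1 window. CDKN2C, counted among the 5, has a second E-box at −69 in the window of another of its starts, 1024.5 and 1803.5 bp from the nearest summits of lists 1 and 2. Without an E-box, list 2 still had a start peak at 18 of the 26 genes (69.2%, against 29.6% of all such genes). A window of some gene covered the summit of 18 of the 36 list 2 peaks, and an E-box lay within 50 bp of 2 of these 18 (11.1%, against 20.1% of all covered list 2 peaks). For list 1 it was 2 of 10 (against 27.1%). In each list these were the CDK4 and CDKN2C peaks. The windows that covered the shared summits at CDC20, CDKN1A, MDM2 and CDKN2D held no CACGTG, nor did the window over the list 1 summit of FZR1.

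The wider cell cycle and p53 network was described with 157 further genes in 8 lists. Of these, 71 had a list 1 peak (45.2%, against 25.9% of all protein-coding genes), 110 a list 2 peak (70.1%, against 47.0%) and 49 a shared one (31.2%, against 16.8%). A list 2 peak at the start was present at 84 of the 138 with a listed start (60.9%, against 32.8%) and a shared one at 41 (29.7%, against 12.8%). By list, a shared peak was found at 8 of 23 genes of the anaphase-promoting and SCF ubiquitin ligases, 9 of 25 p53 targets, 6 of 14 genes of a list of DREAM subunits, further E2F genes, the MYB-type and FOXM1 factors and the INK4 inhibitors CDKN2A and CDKN2B, 7 of 24 replication licensing genes, 6 of 20 further CDKs and CDK-binding subunits, 5 of 16 further cyclins, 5 of 24 spindle and kinetochore genes and 3 of 12 genes of p53 and the checkpoint kinases.

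The shared start peaks with the highest lower fold in these lists were at BAX, the pro-apoptotic p53 target (33.56-fold in list 1 and 32.5-fold in list 2), and at SGO1, the protector of centromeric cohesion (19.02 and 19.64). CDK20 followed (13.91 and 17.91), then MCM7, a subunit of the replicative helicase (13.41 and 22.03), and CCNK, the cyclin of transcriptional kinases (9.03 and 9.21). The DREAM subunit LIN52 had 8.93-fold and 10.24-fold, the anaphase-promoting complex subunit ANAPC13 had 8.33 and 11.58, and MCM2, another helicase subunit, had 7.89 and 11.9. The INK4 inhibitor CDKN2B (8.35 and 7.44) and ANAPC5 (7.43 and 9.95) completed the 10. CDK4 thus stood below BAX and SGO1 by the lower fold and above the other 8. Some of these peaks also counted for a neighbouring gene. These were AP4M1 beside MCM7, ALDH6A1 beside LIN52 and CEP63 beside ANAPC13, with the same folds and tag counts.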

How the data were processed

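The authors called peaks for each immunoprecipitate against its like-numbered input using MACS 1.4.2, cutoff p 1e-05, keeping 1 tag per position and pooling no replicates, per the file headers. Bowtie2, deepTools, HOMER and GRCh38 are named per the submitters' processing notes, without roles. For each peak the authors deposited a tag count not scaled to depth, a fold (the ratio of tags at the summit to those expected from input), a score (the log10 of p multiplied by 10, sign reversed), and an FDR in percent. Because folds and FDRs are estimated within each list, no test was made between lists.

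Peaks were joined to a RefSeq gene table of GRCh38.p14, with no exon positions, by centre, and to RefSeq promoter windows, read with Python 3.11.15, pandas 2.3.3 and numpy 2.4.6. The joining steps were tested on simulated peaks. With 2 lists there is no spread to give beside a value. The members and gene lists were chosen with earlier results of these data known. Every member is reported; of the other lists, the 10 genes with the highest lower fold at the start are named. Alternatives varied the distance limit, peak position, peak threshold, overlap, list, nearest gene and background.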

Additional observations from a re-analysis of the deposited data

How the results depend on the processing

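Counts of genes with a peak depended on the peak threshold more than on the distance limit. Members with a list 1 peak, 15 of 41, numbered 5 at a fold of at least 8, 9 at a p of at most 1e-10 and 3 at an FDR of at most 5%. Those with a list 2 peak, 26, numbered 4, 16 and 17, and those with a shared peak, 9, numbered 2, 5 and 3. Shared peaks at the gene start, 6, numbered 2 at the fold limit and 2 at the FDR limit. List 2 peaks at the gene start, 22, numbered 14 at the FDR limit and 3 at the fold limit, both chosen after seeing the data. With 1 list alone in place of a shared peak, the counts ranged from 15 to 26 for the gene and from 8 to 22 for the gene start. With a distance limit of 500 bp, 6 members had a shared peak, with 5 kb 12, and when a peak could count only for the gene closest to it 7. The share of all protein-coding genes with a shared peak, 16.8%, was 16.0% at 500 bp, 19.2% at 5 kb, 3.28% at the fold limit, 6.25% at the p limit, 1.3% at the FDR limit, 15.5% with an overlap of 50% of both peaks, 7.96% over all annotated genes, and 25.9% to 47.0% with 1 list alone. The limits remove peaks by construction. The single-list gene counts at the limits and the nearest-gene count lack a share over all protein-coding genes. So do the shared start counts at the limits and the list 2 start count at the fold limit. Over peaks, a fold of at least 8 was reached by 5 of 23 in list 1, against 1107 of 7201 at all protein-coding genes. In list 2 it was 6 of 36, against 1967 of 14743. For an FDR of at most 5% it was 3 and 20, against 222 and 5367. No paired analysis was possible because the like-numbered input is built into each list's folds, and input counts per peak were not used here.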
